A study of Mus musculus with 2 samples.

Results

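Amino acid transporter genes were followed here through the transcriptomes of DNA hypomethylated and control mouse embryonic fibroblasts (MEFs). Entries were taken by symbol, as every entry named Slc1a, Slc3a, Slc6a, Slc7a, Slc36a, Slc38a or Slc43a followed by a number, whatever its value. This rule took 59 of the 29126 entries of the expression table. Earlier results of these data were known when the members were chosen. Strand-specific mRNA-seq had been made once for each genotype, Dnmt1+/+ and Dnmt1-/-, so differences stand without replicates and no test was run. Dnmt1 encodes the maintenance DNA methyltransferase. The cells named Dnmt1-/- carry a hypomorphic allele on both chromosomes rather than a full deletion, and both lines lack Trp53, the gene of p53, so that Dnmt1+/+ stands for Trp53-null cells with intact Dnmt1. The labels give the strain as unknown and do not say how many embryos or clones a line came from. The comparison describes how these transcripts differ between the hypomethylated and the control line. Each genotype is a line of its own, so loss of DNA methylation cannot be told apart from other differences between the lines. For Hox genes the paper raises a possible difference in the anatomic origin of the Dnmt1-/- cells, which was not tested here.

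Values are RPKM, in which the reads on a transcript are scaled to its length and to the number of mapped reads, so levels of different genes can be set side by side. A change is given as log2(RPKM + 0.1) in Dnmt1-/- minus that in Dnmt1+/+, a measure that shrinks the differences of weakly expressed genes. Entries were kept for this comparison if the authors' software gave them the status OK, if they had a symbol and if they reached 1 RPKM in either library. The words rose and fell are used only for kept genes that changed more than 2-fold on this scale. The 11244 entries kept shifted by a median of -0.14, and changes are to be read against this shift. From the steps between the lowest values, 1 read on 1 kb of transcript was worth about 0.0183 RPKM in Dnmt1+/+ and 0.017 in Dnmt1-/-, which corresponds to about 55000000 and 59000000 reads. Dnmt1 itself was 4.49-fold lower in Dnmt1-/- MEFs (14.5 RPKM, from 65.2). Of 15 fibroblast markers 14 were kept, with Col1a1 at 1448 and 898 RPKM and Vim at 2269 and 1873, while Thy1 stood at 4.84 and 0.129 and Lum was below 1 in both libraries.

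Amino acids cross the plasma membrane through carriers of several families. Carriers of the Slc38 family bring in small neutral amino acids with sodium, and exchangers of the Slc1 and Slc7 families trade these for others, among them glutamine for leucine. Most Slc7 light chains reach the cell surface only when bound to a glycosylated heavy chain, Slc3a2 (CD98). Several carriers are induced, with biosynthetic enzymes, by the transcription factor ATF4 when amino acids are short. Some members of the Slc6 family carry taurine, creatine, GABA or monoamines instead, and Slc43a3 carries purine bases.

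Of the 59 members, 39 had the status OK and 26 were kept. Among these 26, 7 fell and 2 rose in Dnmt1-/- MEFs. The 7 that fell make 26.9% of the kept members, where 10.9% of all kept entries fell. The 2 that rose make 7.69%, where 8.47% of all kept entries rose. The median log2 change of the kept members was -0.49 (quartiles -1.50 and 0.22), against -0.14 (quartiles -0.56 and 0.27) over all kept entries. A gene kept only because of the library in which it is high had to differ, and 5 members were kept through Dnmt1+/+ alone and 1 through Dnmt1-/- alone. Of the 20 members at 1 RPKM or more in both libraries, 2 fell (Slc6a9 and Slc7a2) and 1 rose (Slc1a6), with a median of -0.08. Over all 10065 entries at 1 RPKM or more in both libraries, 7.43% fell, 4.62% rose and the median was -0.14. The other 5 members that fell (Slc38a4, Slc1a3, Slc43a1, Slc7a3 and Slc43a3) were below 1 RPKM in the Dnmt1-/- library.

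**Figure D1:**
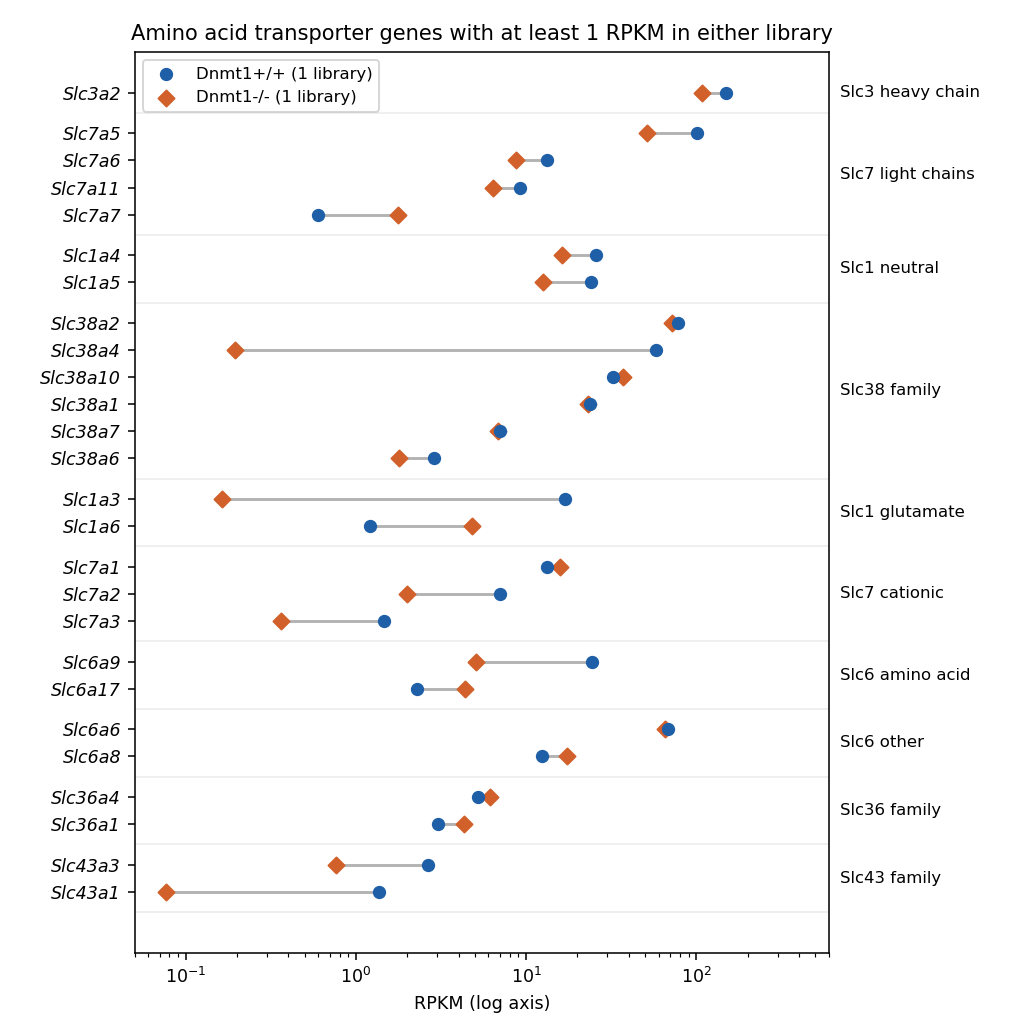
RPKM of the 26 kept transporter genes on a log axis, grouped by what they carry, with 1 circle for the Dnmt1+/+ library and 1 diamond for the Dnmt1-/- library of each gene. Most pairs lie close together, while Slc38a4, Slc1a3 and Slc43a1 lie far apart with the Dnmt1-/- library on the left, and Slc1a6 and Slc7a7 with it on the right.

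**Figure D2:**
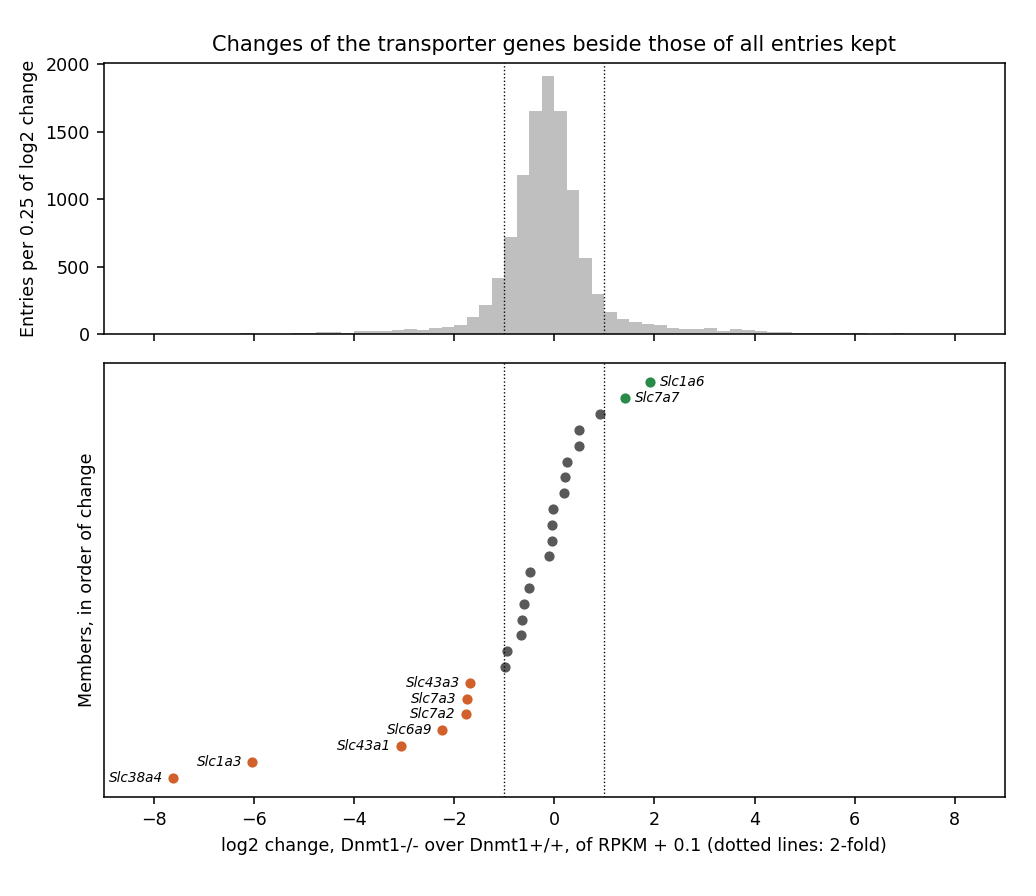
Log2 change of RPKM + 0.1, Dnmt1-/- over Dnmt1+/+, as the number of entries per 0.25 for the 11244 entries kept (top) and as 1 point for each of the 26 kept members in order of change (bottom), with 2-fold marked by dotted lines. The 7 members that fell reach down to -7.62 and the 2 that rose reach 1.92.

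Added over all 59 members, RPKM came to 685.8 in Dnmt1+/+ and 474.4 in Dnmt1-/-. There were 14 members at 10 RPKM or more in Dnmt1+/+ and 10 in Dnmt1-/-. The heavy chain Slc3a2 led both libraries, with 21.7% of the summed RPKM of all members in Dnmt1+/+ and 22.6% in Dnmt1-/-. Behind it, the order in Dnmt1+/+ was Slc7a5 (14.8%), Slc38a2 (11.3%), Slc6a6 (9.89%) and Slc38a4 (8.47%). In Dnmt1-/- it was Slc38a2 (15.2%), Slc6a6 (13.9%), Slc7a5 (10.8%) and Slc38a10 (7.75%). Slc38a4 was no longer among the abundant carriers there, and Slc7a5 passed below Slc38a2 and Slc6a6.

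The heavy chain and the large neutral amino acid exchanger lay lower in Dnmt1-/- MEFs without passing 2-fold. Slc3a2, on chromosome 19 from 8781372 to 8797859 on the minus strand, stood at 149.0 RPKM in Dnmt1+/+ and 107.2 in Dnmt1-/-, a log2 change of -0.48. Slc7a5 (LAT1), which exchanges glutamine for leucine and other large neutral amino acids, stood at 101.2 and 51.3 RPKM. Its log2 change of -0.98 lies just inside the 2-fold limit and is the lowest of the members within it. The ratio of Slc7a5 to its heavy chain was 0.679 in Dnmt1+/+ and 0.479 in Dnmt1-/-. The other abundant partners of Slc3a2 kept nearly the same ratio to it. Slc7a6, which exchanges cationic for neutral amino acids, stood at 13.3 and 8.7 RPKM (-0.61). Slc7a11, the xCT chain that imports cystine for glutathione, stood at 9.17 and 6.42 RPKM (-0.51). The ratio to Slc3a2 was 0.0893 and 0.0812 for Slc7a6, and 0.0616 and 0.0599 for Slc7a11.

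Slc7a7 was the only light chain to rise. It stood at 0.6 RPKM in Dnmt1+/+ and 1.77 in Dnmt1-/-, a log2 change of 1.42, on about 70 and 221 reads. Slc7a7 was kept through Dnmt1-/- alone, so it had to be higher there. This chain exports cationic amino acids and is known from kidney, gut and macrophages. The table gives Slc7a7 and Oxa1l, a gene on the other strand, the same locus on chromosome 14 from 54980463 to 55036536, although the annotated genes overlap by 226 bases only. Oxa1l stood at 20.9 and 15.4 RPKM, far above Slc7a7, and the sources used here do not say whether reads were assigned by strand. With a pseudocount of 1 in place of 0.1 its change was 0.79, below 2-fold. Of 10 blood cell markers 3 were kept and all 3 rose, where 8.47% of all kept entries rose. Csf1r stood at 0.0702 and 6.08 RPKM, Cd68 at 0.596 and 3.63, and Cd14 at 1.51 and 3.23. Csf1r and Cd68 were kept through Dnmt1-/- alone, so they had to be higher there. Ptprc, Emr1 and Cd3e were listed at 0 in both libraries, the summed RPKM of the 10 was 2.2 and 13, and their part in the value of Slc7a7 was not tested. The other 6 light chain entries (Slc7a8, Slc7a9, Slc7a10, Slc7a12, Slc7a13 and Slc7a15) were listed at 0 or no higher than 0.00805 RPKM.

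The promoter of Slc7a11 is shown because it holds the ATF4 motif most clearly among the members whose promoter could be searched. Slc7a5 and Slc1a5 were among those not matched to a promoter. The letters TGATGNAAN, read on both strands, stand for the amino acid response element. In the 250 bases before the RefSeq start (GRCm38.p6), the motif is in capitals once on each strand, and the sequence matched mm9 exactly at chr3:50247536-50247785 on the minus strand.
Slc7a11: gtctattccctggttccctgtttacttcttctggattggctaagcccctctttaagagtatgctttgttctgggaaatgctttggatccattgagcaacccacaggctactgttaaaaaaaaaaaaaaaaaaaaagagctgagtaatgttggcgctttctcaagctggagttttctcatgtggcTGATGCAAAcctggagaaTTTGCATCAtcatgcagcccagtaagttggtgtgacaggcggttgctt
The match on the plus reading ends 57 bases before the start. Among the 41 members with a promoter in the RefSeq table, Slc7a11 and Slc7a7 held the motif, in 3 of the 62 member promoters (4.84%). It was found in 3.44% of all 32851 promoters of the table. A match of letters is not a measured site.

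The sodium-dependent exchangers of the Slc1 family for neutral amino acids, Slc1a4 and Slc1a5, were both lower in Dnmt1-/- without passing 2-fold. Slc1a5 (ASCT2), the exchanger that brings in glutamine, stood at 24.1 RPKM in Dnmt1+/+ and 12.5 in Dnmt1-/- (-0.95), the value next inside the limit after Slc7a5. Slc1a4 (ASCT1), which carries alanine, serine and cysteine, stood at 25.7 and 16.2 RPKM (-0.67). Their ratio moved from 1.07 to 1.3.

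Among the Slc38 carriers a single gene fell, Slc38a4, and it is the member with the largest change. Slc38a4 (SNAT4) takes up small neutral and cationic amino acids and is an imprinted gene expressed from the paternal allele in several tissues. Its locus (mm9, minus strand) runs on chromosome 15 from 96825254 to 96886387. It stood at 58.1 RPKM in Dnmt1+/+ and 0.195 in Dnmt1-/-, on about 12459 and 45 reads. The library labelled Dnmt1-/- was thus 297.6-fold lower, a log2 change of -7.62 that ranks 5 from the lowest among the 11244 entries. Such a difference in bulk RNA cannot tell fewer expressing cells from less RNA in each cell.

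The 2 related carriers beside Slc38a4 on the chromosome stayed within 2-fold. Slc38a1 (SNAT1), whose start lies 413 kb away, stood at 23.8 RPKM in Dnmt1+/+ and 23 in Dnmt1-/- (-0.05). Slc38a2 (SNAT2), a carrier that amino acid shortage induces and whose start lies 356 kb away, stood at 77.5 and 71.9 RPKM (-0.11). Both signs turned once the median shift was subtracted, to 0.09 and 0.03. The summed RPKM of Slc38a1 and Slc38a2 was 101.4 and 95, and that of all 3 genes was 159.4 and 95.2. Slc38a4 made up 36.4% of the summed RPKM of the 3 in Dnmt1+/+ and 0.205% in Dnmt1-/-.

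The promoters of Slc38a4 and Slc38a2 are shown because these neighbours differ in CpG content as well as in change. Each line gives the 250 bases before the RefSeq start (GRCm38.p6), for Slc38a4 the outermost of 3 starts, with each CpG in capitals. The sequences matched mm9 exactly at chr15:96886388-96886637 for Slc38a4 and chr15:96530160-96530409 for Slc38a2, both on the minus strand.
Slc38a4: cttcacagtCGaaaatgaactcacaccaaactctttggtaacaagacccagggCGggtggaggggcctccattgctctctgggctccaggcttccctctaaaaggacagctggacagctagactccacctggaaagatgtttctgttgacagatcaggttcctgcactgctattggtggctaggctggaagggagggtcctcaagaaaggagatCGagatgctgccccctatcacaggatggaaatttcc
Slc38a2: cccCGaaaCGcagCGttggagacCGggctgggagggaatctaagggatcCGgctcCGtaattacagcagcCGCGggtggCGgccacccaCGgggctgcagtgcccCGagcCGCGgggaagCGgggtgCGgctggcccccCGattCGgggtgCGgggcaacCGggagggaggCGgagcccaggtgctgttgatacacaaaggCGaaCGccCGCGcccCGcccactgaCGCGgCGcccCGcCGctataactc
The Slc38a4 window holds 3 CpG and the Slc38a2 window 30. The other starts of Slc38a4 hold 5 each. The median over all promoters of the table was 6 CpG (quartiles 2 and 16), and 49.6% of them held 5 or fewer, so a low count like that of Slc38a4 is common.

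Within 1000 kb of the start of Slc38a4, the kept genes on its low-coordinate side were within 2-fold, and those past 2-fold lay on the other side. Amigo2, a neuronal adhesion protein, and Fam113b have starts close to each other, 191 kb from that of Slc38a4. Amigo2 rose from 0.632 to 3.01 RPKM (2.09) and Fam113b from 0.657 to 1.45 (1.04). Both were kept through Dnmt1-/- alone, so they had to be higher there. Farther out, Vdr, the vitamin D receptor, fell from 9.09 to 1.72 RPKM (-2.33) at 855 kb. Col2a1, the collagen of cartilage, fell from 6.4 to 0.0661 RPKM (-5.29) at 949 kb. Col2a1 was kept through Dnmt1+/+ alone, so it had to be lower in Dnmt1-/-. The other kept genes on this side, Rpap3, Rapgef3, Slc48a1, Hdac7 and Tmem106c, had log2 changes from -0.89 to -0.11. The large loss of Slc38a4 was not shared by Slc38a2, its nearest kept neighbour on the low-coordinate side. Amigo2, the nearest kept gene on the other side, could not have come out lower under the filter used.

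**Figure D3:**
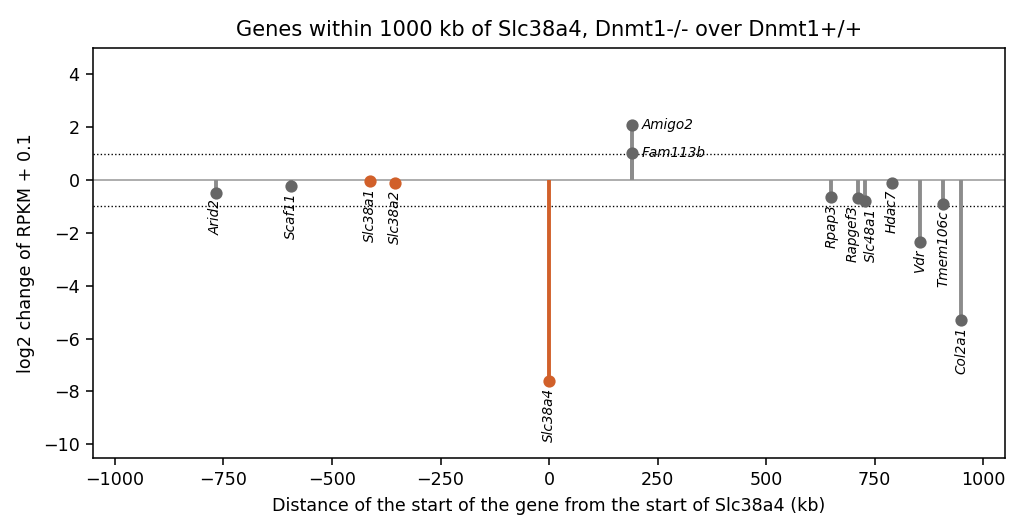
Log2 change of RPKM + 0.1, Dnmt1-/- over Dnmt1+/+, for the kept genes whose start lies within 1000 kb of that of Slc38a4, against the distance between the starts in kb, with Slc38 genes in orange and 2-fold marked by dotted lines. Slc38a4 stands at -7.62 between Slc38a2 at -0.11 and Amigo2 at 2.09.

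The other kept Slc38 carriers were within 2-fold. Slc38a10 stood at 32.2 RPKM in Dnmt1+/+ and 36.8 in Dnmt1-/- (0.19). Slc38a6 stood at 2.86 and 1.79 RPKM (-0.64). Slc38a7, which exports glutamine from lysosomes, stood at 6.99 and 6.86 RPKM (-0.02). Slc38a9, the lysosomal arginine sensor of mTORC1, did not reach 1 RPKM, with 0.628 and 0.427. Slc38a3, a glutamine carrier of the liver, was at 0.0128 and 0.0114 RPKM, and Slc38a5, Slc38a8 and Slc38a11 were listed at 0 in both libraries.

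The glutamate and aspartate carriers of the Slc1 family moved in opposite directions, with the loss of Slc1a3 the larger. Slc1a3 (EAAT1, also called GLAST) is the glutamate and aspartate carrier best known from astrocytes. Its locus on chromosome 15 runs from 8631042 to 8660807 on the minus strand. It stood at 16.9 RPKM in Dnmt1+/+ and 0.162 in Dnmt1-/-, on about 3850 and 40 reads. The 104.8-fold lower value, a log2 change of -6.03, ranks 27 from the lowest of all kept entries. The promoter of Slc1a3 is shown beside those above because it also holds few CpG, here 2, in capitals. It is given by the same rules from RefSeq (GRCm38.p6), and it matched mm9 at chr15:8660808-8661057 on the minus strand.
Slc1a3: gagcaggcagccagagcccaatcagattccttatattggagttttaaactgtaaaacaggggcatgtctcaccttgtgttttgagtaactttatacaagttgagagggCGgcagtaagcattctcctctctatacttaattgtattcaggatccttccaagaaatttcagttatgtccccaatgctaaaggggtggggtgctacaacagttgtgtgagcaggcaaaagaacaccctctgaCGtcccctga
Both genes kept on either side of Slc1a3 also fell. Nipbl, the cohesin loader, fell from 25.8 to 8.21 RPKM (-1.64) with 189.7 kb between the genes. 1110020G09Rik fell from 21.2 to 10.2 RPKM (-1.04) at 340.2 kb.

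Slc1a6 (EAAT4), the glutamate carrier of cerebellar Purkinje cells, rose. It stood at 1.2 RPKM in Dnmt1+/+ and 4.82 in Dnmt1-/-, 4-fold higher, on about 137 and 592 reads. Its log2 change of 1.92 ranks 530 from the highest. The summed RPKM of the 5 glutamate carriers was 18.2 in Dnmt1+/+ and 5.02 in Dnmt1-/-, and the carrier that made up most of it differed, Slc1a3 in Dnmt1+/+ and Slc1a6 in Dnmt1-/-. Slc1a2, the main glutamate carrier of forebrain astrocytes, was at 0.00981 and 0.0368 RPKM, Slc1a7 was at 0.033 RPKM and listed at 0 in Dnmt1-/-, and Slc1a1 was listed at 0 in both. Neuron and glia markers were low in these cells. Of the 12 neuron markers found, 11 were below 1 RPKM in both libraries and Stmn2 stood at 2.19 and 0.0108. Of the 10 glia markers, 9 were below 1 RPKM in both and Aldh1l1 stood at 0.213 and 1.72. The summed RPKM was 2.47 and 0.355 for the neuron list and 1.46 and 2.75 for the glia list, with Snap25, Rbfox3 and Aqp4 at 0 in both, and their part in the values of Slc1a3 and Slc1a6 was not tested.

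Of the carriers for arginine and lysine, Slc7a2 and Slc7a3 fell while Slc7a1 did not. Slc7a1 (CAT-1), the most widely expressed of them, stood at 13.2 RPKM in Dnmt1+/+ and 15.8 in Dnmt1-/- (0.26). Slc7a2 (CAT-2), which also supplies arginine to nitric oxide synthase, stood at 7 and 1.98 RPKM, 3.54-fold lower (-1.77). Slc7a3 (CAT-3), known from brain, stood at 1.46 and 0.363 RPKM, 4.01-fold lower (-1.75), on about 219 and 59 reads. Slc7a3 was within 2-fold with a pseudocount of 1 (-0.85). The summed RPKM of the cationic carriers was 21.7 and 18.2, and Slc7a1 made up most of it in both libraries. Slc7a4 stood at 0.0577 and 0.00519 RPKM, and Slc7a14 was listed at 0.

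Slc6a9 was the one Slc6 member to fall. Slc6a9 (GlyT1) takes up glycine with sodium and chloride. It went from 24.2 RPKM to 5.05 in the hypomethylated cells, 4.78-fold lower (-2.24), on about 4586 and 1032 reads. Among members at 10 RPKM or more in either library, only Slc38a4 and Slc1a3 fell further. The table gives it and B4galt2, on the minus strand, the same locus on chromosome 4 from 117507863 to 117556074. In the annotation Slc6a9 runs on the plus strand from 117507111 to 117547803 and overlaps B4galt2 by 5939 bases. B4galt2, a galactosyltransferase, fell too, from 13.2 to 4.87 RPKM (-1.42). Without knowing whether strand was used in counting, the values of this overlapping pair cannot be told apart. Slc6a17, a vesicular carrier of neurons for neutral amino acids, stood at 2.27 and 4.37 RPKM (0.92), and passed 2-fold (1.06) once the median shift was subtracted. Slc6a15, a branched-chain amino acid and proline carrier, stood at 0.894 and 0.755 RPKM, under the limit of 1.

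The Slc6 carriers of taurine and creatine stayed within 2-fold. Slc6a6, the taurine carrier, had 67.9 RPKM in Dnmt1+/+ against 65.8 in Dnmt1-/- (-0.04, or 0.10 with the median shift subtracted). Slc6a8, the creatine carrier, stood at 12.3 and 17.3 RPKM (0.49). Slc6a11, Slc6a12 and Slc6a13, which carry GABA or betaine, were listed at 0 or no higher than 0.0163 RPKM. Slc6a4, the serotonin carrier, stood at 0.0386 and 0.51 RPKM on about 6 and 84 reads, and Slc6a2, the noradrenaline carrier, at 0.192 and 0.0711. Neither reached 1 RPKM.

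The proton-coupled carriers of the Slc36 family, which work at lysosomes and the plasma membrane, lay higher in Dnmt1-/- within 2-fold. Slc36a1 had 3.02 RPKM in Dnmt1+/+ against 4.28 in Dnmt1-/- (0.49). Slc36a4 had 5.21 and 6.1 RPKM (0.22). Slc36a2 and Slc36a3 were no higher than 0.0473 RPKM.

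Both kept members of the Slc43 family fell, and they are neighbours on chromosome 2 with 73 kb between them. Slc43a1 (LAT3), a carrier of leucine and other large neutral amino acids, stood at 1.37 RPKM in Dnmt1+/+ and 0.0763 in Dnmt1-/-, on about 231 and 14 reads. It was 17.9-fold lower (-3.06). Slc43a3, the purine base carrier, stood at 2.65 and 0.761 RPKM, 3.48-fold lower (-1.68). P2rx3, an ATP-gated channel on the far side of Slc43a3, fell as well, from 1.18 to 0.163 RPKM (-2.28), while Timm10, on the far side of Slc43a1, stood at 18.7 and 28 RPKM (0.58). Like Slc43a1 and Slc43a3, P2rx3 was kept through Dnmt1+/+ alone, so it had to be lower in Dnmt1-/-. Slc43a2 (LAT4), on another chromosome, stood at 0.397 and 0.913 RPKM.

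The remaining members held little RNA in either library. Of the 33 members not kept, 17 were listed at 0 in both libraries and 16 were above 0 but below 1 RPKM. Of the 17, 3 nevertheless had the status OK (Slc1a1, Slc7a10 and Slc7a15). The highest value among all 33 was the 0.913 RPKM of Slc43a2. Many of the silent members are carriers of kidney, gut or brain, such as Slc6a18 and Slc6a19 of the brush border, Slc7a9 with its heavy chain Slc3a1 (0.252 and 0.129 RPKM), the dopamine carrier Slc6a3 and the glycine carrier Slc6a5. The other entries listed at 0 were Slc6a11, Slc6a13, Slc6a14, Slc7a12 and Slc7a13, beside those given above, and Slc6a7 stood at 0.0483 and 0.0888 RPKM.

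Genes of amino acid use outside these families were set beside the transporters, with lists that were drawn up when earlier results of these data were known. In the list of genes induced through ATF4, 12 of 18 kept genes fell (66.7%, against 10.9% of all kept entries) and 1 rose (5.56%, against 8.47%), with a median log2 change of -1.51. Atf4 itself, which is controlled mainly at translation, stood at 405.3 RPKM in Dnmt1+/+ and 230.2 in Dnmt1-/- (-0.82). Among the targets, asparagine synthetase (Asns) fell from 154.3 to 66.2 RPKM (-1.22), the alanine aminotransferase Gpt2 from 54.1 to 12.7 (-2.08), and Cth, which makes cysteine, from 34.8 to 6.67 (-2.36). The regulators Trib3 (57.4 to 11.9 RPKM, -2.26), Ddit4 (61.9 to 8.68, -2.82), Sesn2 (13.6 to 3.56, -1.91), Atf3 (10.2 to 2.92, -1.77) and Atf5 (110.7 to 39.2, -1.50) fell as well. Chac1, Vldlr, Stbd1 and Eif4ebp1 were the other 4, with changes from -3.04 to -1.14. Gdf15, a secreted stress factor, rose from 0.18 to 5.89 RPKM (4.42). Gdf15 was kept through Dnmt1-/- alone, so it had to be higher there. Not all of the list fell, and Ddit3 stood at 131.8 and 96.9 RPKM (-0.44).

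Enzymes that make, convert or break down amino acids were read in the same way. Of 22 kept enzymes of serine, glycine, proline and glutamine synthesis 4 fell (18.2%, against 10.9% of all kept entries) and none rose (8.47% of all kept entries), with a median of -0.47. The proline enzymes Aldh18a1 and Pycr1 fell from 104.1 to 41.8 RPKM (-1.31) and from 25.8 to 6.05 (-2.07). Psph, the last enzyme of serine synthesis, fell from 46 to 21.7 RPKM (-1.08), and Cbs, which joins serine to homocysteine, from 4.26 to 0.111 (-4.37). Cbs was kept through Dnmt1+/+ alone, so it had to be lower in Dnmt1-/-. Of 7 enzymes of branched-chain amino acid use 3 fell (42.9%, against 10.9% of all kept entries), with a median of -0.64. The transaminases Bcat1 and Bcat2 fell from 26.2 to 10.4 RPKM (-1.33) and from 21.7 to 4.38 (-2.29), and Dbt, a subunit of the next complex, from 4.57 to 1.98 (-1.17).

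The sensors, the other carriers and the enzymes of tRNA charging come last. Of 26 kept genes of amino acid sensing by mTORC1, 3 fell (11.5%), a share near the 10.9% of all kept entries, and the median was -0.19. These were the sestrins Sesn1 (29 to 9.31 RPKM, -1.63) and Sesn3 (8.12 to 2.62, -1.59) and the GTPase Rragb (7.86 to 2.27, -1.75). Of 11 kept genes listed as carriers of amino acids or peptides from other families none fell, where 10.9% of all kept entries fell. In this list 1 rose (9.09%, against 8.47% of all kept entries), and the median was -0.18. The gene that rose was the lysosomal membrane protein Cln3 (0.347 to 2.24 RPKM, 2.39). Cln3 was kept through Dnmt1-/- alone, so it had to be higher there. Without the added 0.1 RPKM, Slc25a13 (10.1 and 5 RPKM) was 2.02-fold lower in Dnmt1-/-. Slc25a29 (1.28 and 0.61), kept through Dnmt1+/+ alone, was 2.1-fold lower. Of the 20 cytosolic tRNA synthetases 1 fell (5%, against 10.9% of all kept entries), Yars (93.2 to 44.5 RPKM, -1.07). Of the 20, 17 lay below 0, as did 6701 of all 11244 kept entries, and the median was -0.48, against -0.14.

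**Figure D4:**
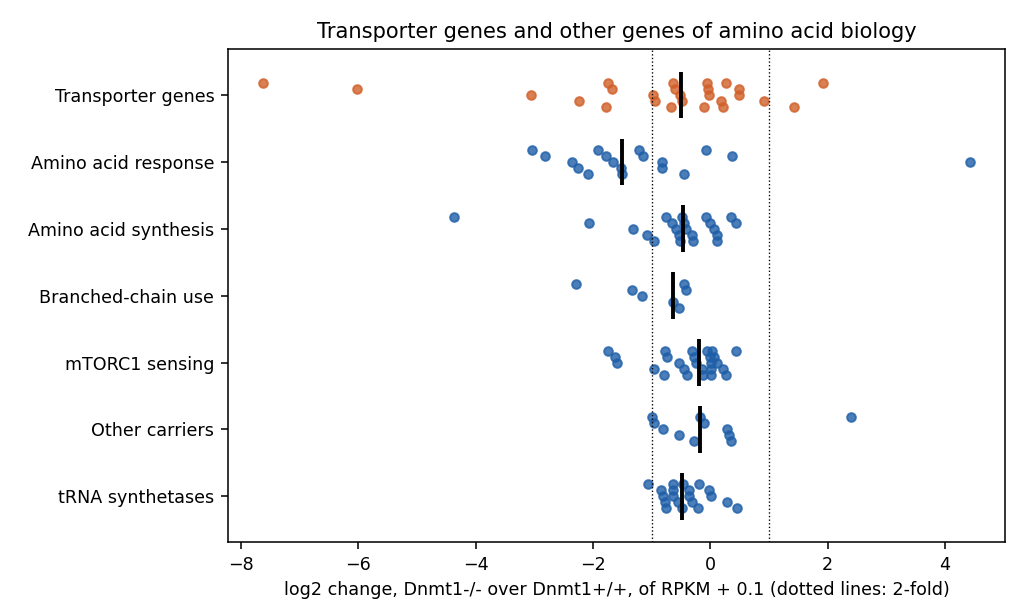
Log2 change of RPKM + 0.1, Dnmt1-/- over Dnmt1+/+, with 1 point for each kept gene of the transporter families and of 6 other lists of amino acid biology, a black bar at each median and 2-fold marked by dotted lines. The amino acid response list has the lowest median, -1.51, and the transporters reach lowest, with Slc38a4 at -7.62.

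Over all members, promoter CpG content could be read for 18 of the 26 that were kept, among them 4 of the 7 that fell. The highest CpG count over the starts of a gene had a median of 7.5 in these 4 and of 17 in the 12 that were within 2-fold. Slc1a3 and Slc38a4 lie at the low end with 2 and 5, Slc6a9 holds up to 10, and Slc43a1 holds 24, so low CpG content was not common to the genes that fell. Slc7a11, with 2 CpG, was within 2-fold. Slc7a2, Slc7a3 and Slc43a3 were not matched.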

How the data were processed

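Strand-specific mRNA-seq libraries were prepared from DNase-treated total RNA and read as 50 bp single-end reads, 1 library from Dnmt1+/+ and 1 from Dnmt1-/- MEFs. TopHat (alignment to mm9), Cufflinks (assembly) and Cuffdiff (quantification) were run by the authors, who deposited the resulting RPKM values in 1 column per library. Program versions, any scaling between libraries beyond mapped reads, and the use of strand in counting are not given in the sources used here. The deposited table also holds the authors' fold changes and p-values, which were not used.

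Changes were computed as log2(RPKM + 0.1), Dnmt1-/- minus Dnmt1+/+, for entries with status OK, a symbol and at least 1 RPKM in either library, and called past 2-fold. With 1 library per genotype, no p-value was computed and neither counting intervals nor limits were given. Members and lists were chosen with earlier results of these data known. Members past 2-fold, at 10 RPKM or more, or in the Slc38a1, Slc38a2 and Slc38a4 cluster were named, with list genes past 2-fold; further members and list genes (Atf4, Ddit3), neighbouring genes and markers were named after their values were seen. Values of low-count genes near 1 read gave the depth, an estimate, and read numbers per gene rest on the longest coding transcript of GENCODE M1 (mm9), which also gave gene ends. Loci are 1-based. The values of 1 member are not reported here. Promoters came from RefSeq (GRCm38.p6), for 41 of 59 members. Alternatives were pseudocounts of 1 and 0.01, no filter, a 1.5-fold limit, a mean of at least 1 RPKM, centring on the median change and, added after the data were seen, amino acid carriers alone and at least 1 RPKM in both libraries. Python 3.11.15, numpy 2.4.6, pandas 2.3.3 and matplotlib 3.10.9 were used.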

Additional observations from a re-analysis of the deposited data

How the results depend on the processing

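The median log2 change of the kept members, -0.49, stayed below that of all kept entries under each alternative but 1. With at least 1 RPKM in both libraries, a filter added after seeing the data that removes genes almost lost from one library, it was -0.08 and lay above the -0.14 of all 10065 entries, with 2 of 20 members lower and 1 higher. Otherwise it was -0.46 with a pseudocount of 1, -0.50 with 0.01, -0.44 with no filter on low RPKM (36 members), -0.29 with a mean RPKM of at least 1 (24 members), -0.35 with the median change subtracted, and -0.51 for amino acid carriers alone, also chosen after seeing the data. The 2 members that rose became 1 with a pseudocount of 1, which ended the call of Slc7a7, and 4 without a filter, which adds Slc43a2 and Slc6a4. The 7 that fell became 12 at a 1.5-fold limit (46.2% of kept members, against 23.7% of all entries), and 5 with the mean filter, which leaves out Slc43a1 and Slc7a3. With the median change subtracted, 9.71% of all kept entries rose and 8.58% fell, 11.5% of the members rose and 26.9% fell, and the count of tRNA synthetases that fell went from 1 to 0. Counts in the other lists stayed within 1.5 times. Of the 60 recomputed changes of the 20 named members, 0 reversed a called direction, which could not have come out otherwise. A pseudocount cannot turn the sign of a change, and centring moves a change only by the median shift of -0.14. Among members within 2-fold, Slc38a1, Slc38a2 and Slc6a6 changed sign with the median change subtracted (0.09, 0.03 and 0.10). No paired analysis was possible because each genotype has 1 library. RPKM values carry no counts, so the precision of members below about 1 RPKM is limited by reads whose number is only estimated.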

Other observations

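The genes next to the 9 members past 2-fold were read off for position, taking the nearest kept gene on each side that does not overlap the member. Of these 18 neighbours, 6 were past 2-fold in the same direction as the member, where 10.9% of all kept entries fell and 8.47% rose. The 6 include Slc43a1 and Slc43a3, which count as neighbours of each other and were themselves picked as members past 2-fold. The others are Nipbl and 1110020G09Rik (-1.04) beside Slc1a3, P2rx3 beside Slc43a3, and Pdgfrl beside Slc7a2. Slc43a1, Slc43a3 and P2rx3 were kept through Dnmt1+/+ alone, so they had to be lower in Dnmt1-/-. Pdgfrl, 3.9 kb from Slc7a2, stood at 3.24 RPKM in Dnmt1+/+ and 1.55 in Dnmt1-/- (-1.02), just past the limit. Slc7a3 and Slc6a9 had neighbours within 2-fold on both sides, Kif4 (20.4 and 33.9 RPKM) and Snx12 (40 and 38.7) for Slc7a3 and Dmap1 (23.7 and 15.1) and Atp6v0b (30.4 and 22.8) for Slc6a9. Slc1a6 rose beside 2610008E11Rik, which fell from 16.2 to 6.39 RPKM (-1.33). Slc7a7 lies between Abhd4 (14.4 and 9.62 RPKM) and Mrpl52 (97.4 and 121.3), both within 2-fold. Neighbours were not tested against other genes.

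The markers of other cell types not given above were low. Of 9 epithelial markers found, 8 were below 1 RPKM in both libraries and Krt14 stood at 0.0349 RPKM in Dnmt1+/+ and 1.46 in Dnmt1-/-, with a summed RPKM of 0.648 and 2.47. All 8 endothelial markers were below 1 RPKM in both libraries, with a sum of 0.564 and 0.745. Among the 14 kept fibroblast markers 2 rose (Pdgfra and S100a4, 14.3%, against 8.47% of all kept entries). Of the same markers 4 fell (Col1a2, Fn1, Postn and Thy1, 28.6%, against 10.9%). Thy1 was kept through Dnmt1+/+ alone, so it had to be lower in Dnmt1-/-.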
